A study of Mus musculus with 6 samples.

Results

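Isolated CpG cytosines are described here: cytosines with few measured neighbours. All autosomal cytosines with a methylation level in each of the 6 libraries were sorted by position, and neighbours at most 100 bp apart were joined into runs. The 111979 cytosines in runs of 1 to 4 are the isolated ones, 30.3% of the 369208 cytosines measured in all libraries. They form 56784 runs: 23946 single cytosines, 16827 runs of 2, 9665 runs of 3 and 6346 runs of 4. The other 257229 cytosines lie in 22524 runs of 5 or more. Isolation is thus defined by what the assay listed and not by the CpGs of the genome. When neighbours were counted among the 733073 autosomal cytosines listed in any library, 82.7% of single cytosines were still single. Runs of the same size then held 64.9% of the cytosines in runs of 2, 58.4% of those in runs of 3 and 57.2% of those in runs of 4. In all, 75.9% of isolated cytosines stayed in runs of 1 to 4, and 27033 lay in larger runs.

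The levels come from reduced representation bisulfite sequencing (RRBS) of E14 mouse embryonic stem cells, an established cell line. The groups are a control shRNA and shRNAs labelled Dnmt1, Dnmt3a, Dnmt3b, Dnmt3a with Dnmt3b, and Tet1 with Tet2, with 1 library each. The title of the Dnmt1 library names its shRNA as Dnmt1a. The cells are otherwise labelled alike, and no clone, passage or knockdown time is given in the sources used here. With 1 library per group no comparison of conditions has a replicate or a test, and a difference between conditions cannot be told apart from a difference between libraries. The SD printed after ± is over the means of the 19 autosomes and describes the genome, not the culture. The number of autosomes that share a direction is likewise a description. All differences from control share the same control library. Read counts are not part of the files, and how many reads stand behind a level is unknown.

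DNMT1 copies methylation onto the new strand after DNA replication, while DNMT3A and DNMT3B place methyl groups on unmethylated CpGs. TET1 and TET2 oxidise methylated cytosine, a step on the way to its removal. In mammalian cells CpG islands, the dense clusters of CpGs at many promoters, are mostly unmethylated, and CpGs that stand apart from islands are mostly methylated.

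RRBS cuts DNA with MspI, an enzyme that recognises CCGG, and reads from the cut ends. The sites it reads are therefore part of what makes a cytosine look isolated. The sequences below are the 5-base surroundings of cytosines at MspI sites, written 5′ to 3′ on the strand of the measured cytosine with the CpG in capitals. They are shown because these 4 contexts account for 23562 of the 23946 single cytosines (98.4%), and because the level left after Dnmt1 knockdown differed among them.
MspI site after A: acCGg
MspI site after C: ccCGg
MspI site after G: gcCGg
MspI site after T: tcCGg
Of the 52207 isolated cytosines off MspI sites, which fell into 15 contexts of 4 bases, the following contexts had the smallest and the largest difference under Dnmt3a knockdown in the intermediate class described further on. They were picked for those values.
CpG between T and A: tCGa
CpG between A and T: aCGt

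The make-up of a run followed the reads. MspI-site cytosines were 98.4% of single cytosines, 50.1% of cytosines in runs of 2, 37.7% in runs of 3 and 33.1% in runs of 4. Most short runs thus held 1 MspI-site cytosine and the CpGs next to it: 97.4% of runs of 2, 84.5% of runs of 3 and 67.0% of runs of 4 had exactly 1. In runs on 1 strand the first cytosine in read direction lay in an MspI site in 98.8% of runs of 2, 98.6% of runs of 3 and 98.8% of runs of 4. After that first cytosine, 45618 of 46004 later cytosines (99.2%) lay at most 49 bases on. The edge was sharp, with 9048 cytosines at 40 to 49 bases and 6 at 50 to 59 bases. Both strands were present in 1.31% of runs of 2, 13.3% of runs of 3 and 30.5% of runs of 4. The cytosines of a 1-strand run are therefore read from the same cut end and mostly share reads, so they are not repeats of each other.

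**Figure D1:**
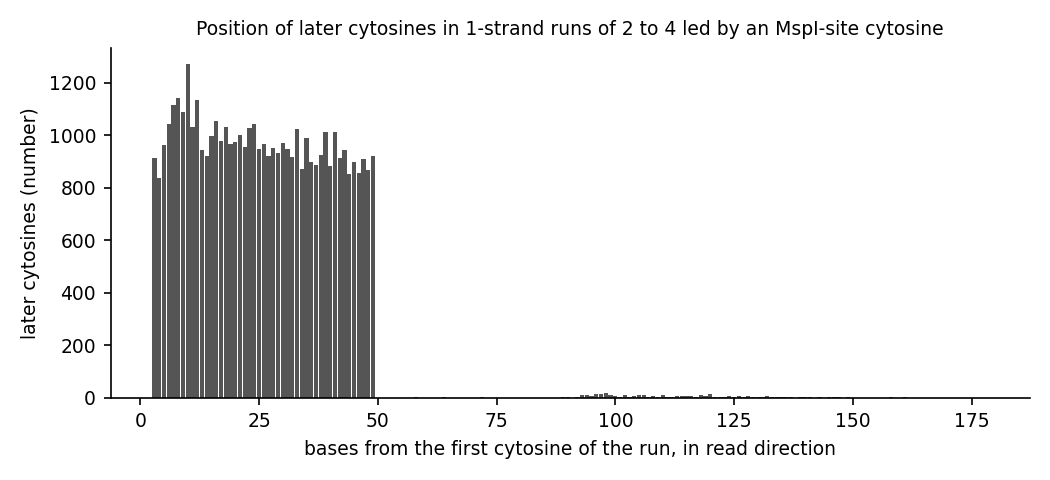
Number of later cytosines (vertical axis) by their distance in bases from the first cytosine in read direction (horizontal axis), in 29032 runs of 2 to 4 on 1 strand led by an MspI-site cytosine. The counts drop off after 49 bases, and 99.2% of the later cytosines lie at or before that distance.

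Isolated cytosines were far more methylated than cytosines in larger runs. In control their mean level was 60.03% ± 2.17, against 10.7% ± 1.24 in runs of 5 or more, and they were higher on 19 of 19 autosomes. The level was lower with every added neighbour. In control it was 71.8% ± 1.69 for single cytosines, 65.5% ± 1.82 for runs of 2, 54.7% ± 2.94 for runs of 3 and 47.8% ± 3.39 for runs of 4. It was 27.5% ± 2.44 in runs of 5 to 9. Single cytosines exceeded runs of 2 on 19 of 19 autosomes, runs of 2 exceeded runs of 3 on 19, and runs of 3 exceeded runs of 4 on 18. The last of these steps averaged 6.74 ± 3.06 points over autosomes. The same order held in the other 5 libraries, and single cytosines exceeded runs of 4 by 23.2 to 24.0 points over autosomes in all but the Dnmt1 library, where the gap was 3.13 ± 0.878. The size of the gap depended on how neighbours were counted: in control it was 13.1 points with neighbours from any library, 15.1 points with gaps of at most 300 bp and 35.6 points with gaps of at most 50 bp.

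The means are mixtures of unmethylated and methylated cytosines. Each cytosine was classed by the median of its 6 levels as low (under 20%), intermediate (20 to 80%) or high (over 80%). Of single cytosines 12.1% were low, 37.5% intermediate and 50.4% high. In runs of 2 the low class made up 19.2% and the high class 44.4%, in runs of 3 the classes stood at 32.2% and 36.2%, and in runs of 4 at 40.4% and 30.3%. In all, 28975 isolated cytosines were low, 37791 intermediate and 45213 high. They held 11.5% of all low cytosines in the libraries, 65.7% of the intermediate and 76.3% of the high ones. The control level is one of the 6 that set the class, so its range within a class is bounded by that choice. From single cytosines to runs of 4 it went from 8.57% ± 0.938 to 3.86% ± 0.553 in the low class, from 68.0% ± 0.763 to 64.3% ± 1.33 in the intermediate class and from 89.7% ± 0.258 to 90.5% ± 0.376 in the high class.

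**Figure D2:**
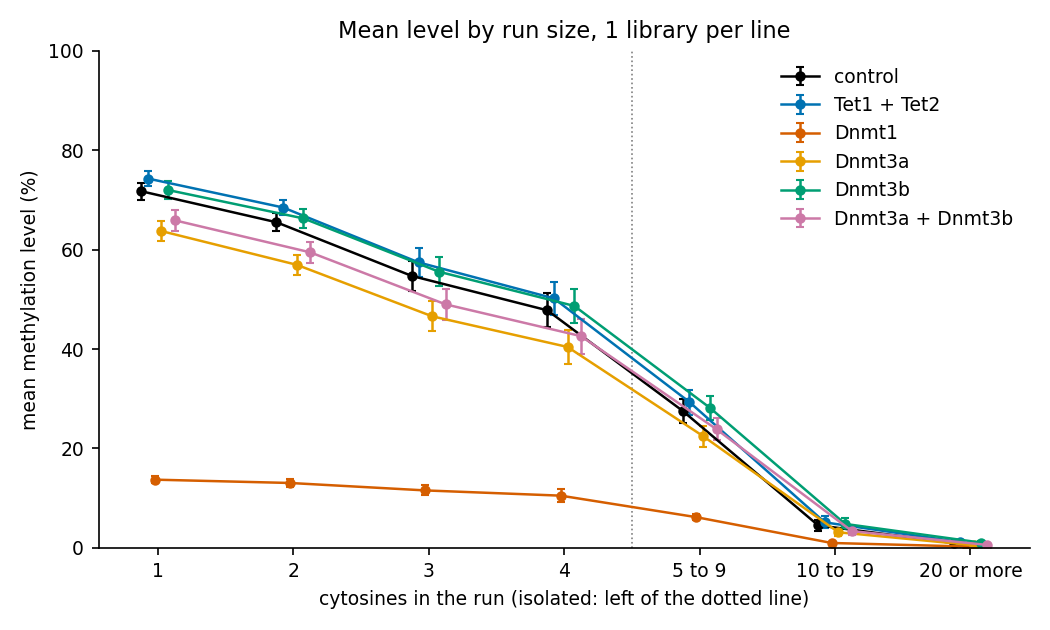
Mean methylation level in percent (vertical axis) by number of cytosines in the run (horizontal axis), 1 line per library, with bars for the SD over 19 autosomes. Isolated cytosines, left of the dotted line, go from 71.8% to 47.8% in control and from 13.7% to 10.5% in the Dnmt1 library.

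A second measure of isolation, distance to a large run, separated the levels further. The 9896 runs of 10 or more were mostly unmethylated: 95.3% of them were in the low class and their control levels averaged 3.90%. Isolated cytosines up to 200 bp from such a run had a control level of 6.32% ± 2.04, and those at 200 to 500 bp 6.87% ± 1.94. The level was 16.6% ± 3.92 at 500 bp to 1 kb and 38.4% ± 6.98 at 1 to 2 kb. It reached 53.5% ± 5.08 at 2 to 5 kb, 60.5% ± 3.01 at 5 to 20 kb and 71.6% ± 1.8 beyond 100 kb. Few neighbours within 100 bp therefore did not go with a high level where a large run was near: 92.8% of the 2848 cytosines within 200 bp were low.

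Run size and this distance moved together, since 5.35% of single cytosines and 17.1% of cytosines in runs of 4 lay within 2 kb of a run of 10 or more. The order by run size was present at each distance. Within 2 kb the control level was 30.1% ± 6.87 for 1280 single cytosines and 10.02% ± 2.17 for 4341 cytosines in runs of 4. From 2 to 20 kb it was 67.6% ± 2.63 for single cytosines and 50.3% ± 6.40 for runs of 4. Beyond 20 kb it was 75.8% ± 1.34 for 17896 single cytosines, 71.8% ± 1.86 in runs of 2, 63.5% ± 3.31 in runs of 3 and 57.3% ± 3.73 for 15902 cytosines in runs of 4.

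Among single cytosines the level did not follow the distance to the nearest measured cytosine evenly. The median distance was 3161 bp. The 6291 single cytosines whose nearest neighbour lay within 200 bp had a control level of 68.2% ± 2.10, above the 49.7% ± 4.23 of the 1393 at 200 to 500 bp. From there the level went up to 60.4% ± 4.39 at 500 bp to 1 kb, 70.0% ± 3.31 at 1 to 2 kb and 79.3% ± 1.28 for the 7290 beyond 10 kb. In the nearest group 74.6% of neighbours were on the opposite strand. A large run was that neighbour for 2.99% of single cytosines with the neighbour within 200 bp and for 13.5% of those at 200 to 500 bp. The part of the large runs in the dip was not tested.

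**Figure D3:**
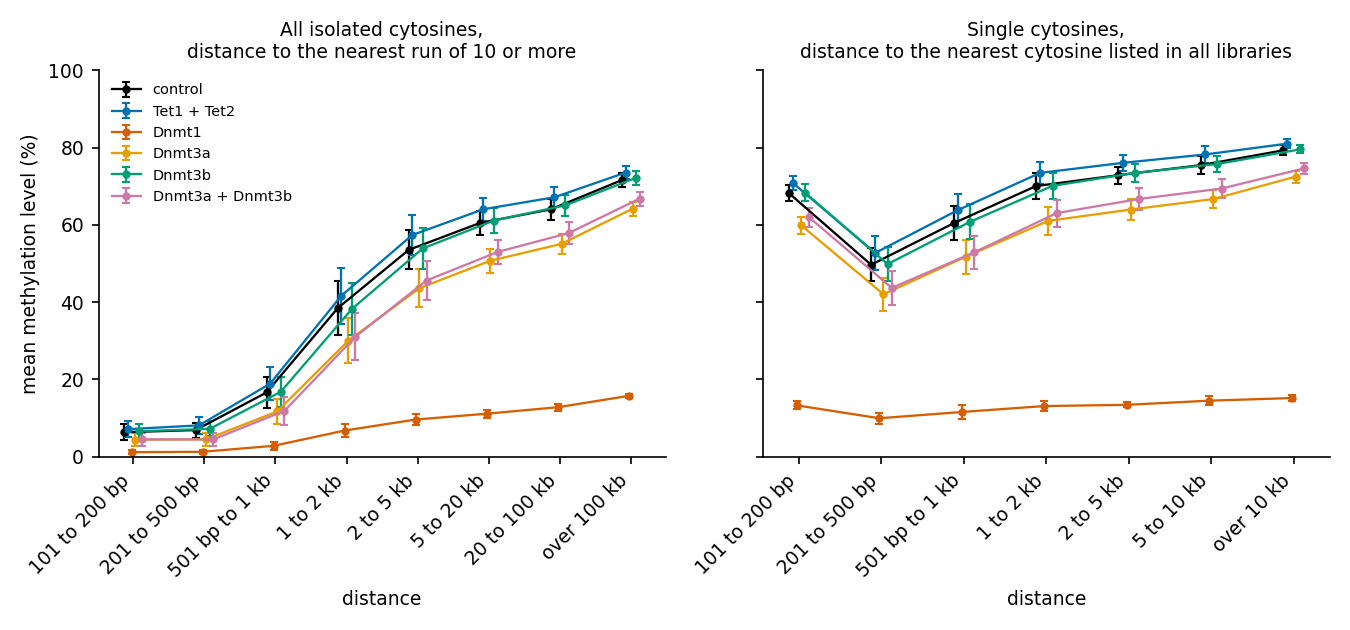
Mean methylation level in percent (vertical axes) of all isolated cytosines by distance to the nearest run of 10 or more (left) and of single cytosines by distance to the nearest cytosine listed in all libraries (right), 1 line per library, with bars for the SD over 19 autosomes. On the left the control level goes from 6.32% to 71.6%, and on the right it dips to 49.7% at 200 to 500 bp.

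Dnmt1 knockdown left the isolated cytosines with little methylation. Their mean was 12.2% ± 0.850, a difference from control of -47.8 ± 1.42 points, negative on 19 of 19 autosomes. The difference was largest for single cytosines, at -58.0 ± 1.14 points, and shrank to -52.5 ± 1.21, -43.1 ± 2.04 and -37.3 ± 2.40 points in runs of 2, 3 and 4. Relative to control the order was the reverse: single cytosines kept 19.1% ± 0.714 of their level, runs of 2 kept 19.9%, runs of 3 kept 21.1% and runs of 4 kept 22.0%. Low, intermediate and high isolated cytosines kept 20.4%, 16.1% and 23.0% of the control level, in classes that the Dnmt1 level helped to set.

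The small excess in larger runs was also present at matched levels, though not in every bin. Cytosines were binned by the mean of the Dnmt3b and the Tet1 with Tet2 libraries, which take no part in the difference. At a reference level of 90 to 95% the Dnmt1 library stood at 20.2% for single cytosines and at 21.3%, 22.0% and 23.1% in runs of 2, 3 and 4, with control between 90.5% and 90.7%. The difference from control was 2.72 ± 1.26 points more negative for single cytosines than for runs of 4, on 19 of 19 autosomes. Restricted to MspI-site cytosines, whose share changes with run size, the gap was 2.97 ± 1.2 points, again on 19 of 19. At a reference level of 60 to 80% it was 3.32 ± 1.64 points (19 of 19) and, for MspI-site cytosines, 2.42 ± 2.21 points (16 of 19). At 20 to 40% single cytosines minus runs of 4 gave -0.433 ± 2.17 points, negative on 9 of 19, which is within the spread. Off MspI sites the same value was 0.918 ± 10.8 points at 60 to 80% and 2.64 ± 4.45 at 80 to 90%, also within the spread. Only 384 single cytosines lay off MspI sites over all levels, so these values cannot show whether the gap is present there.

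Some isolated cytosines kept high levels in the Dnmt1 library. Of 53138 with a control level of at least 80%, 1274 (2.40%) were still at 50% or more. The share over all 70303 cytosines with such a control level was 2.80%, so isolated cytosines were near this background and not above it. Among isolated cytosines the share went up with run size, from 1.53% of single cytosines through 2.07% and 2.95% to 3.61% in runs of 4. It was 4.03% in runs of 5 or more, but the rise was not even there. The share was 4.06% in runs of 5 to 9, 3.15% in runs of 10 to 19 and 15.6% of 90 cytosines in runs of 20 or more. Levels under 10% were found for 20.9% of such single cytosines and 15.5% of those in runs of 4, against 17.2% over all such cytosines.

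The base before an MspI site went with the level left after Dnmt1 knockdown. Among high single cytosines, 3194 in tcCGg stood at 22.7% ± 1.54 in the Dnmt1 library, 3709 in ccCGg at 19.03% ± 1.02, 2296 in acCGg at 17.2% ± 1.08 and 2749 in gcCGg at 16.1% ± 0.903. Their control levels lay between 89.2% and 90.4%. The tcCGg context exceeded gcCGg by 6.56 ± 1.45 points and acCGg by 5.52 ± 1.57 points in the Dnmt1 library, both on 19 of 19 autosomes. In control the first of these gaps was 0.681 ± 0.557 points. High MspI-site cytosines in runs of 2 to 4 had the same order, with 25.3%, 21.5%, 19.5% and 18.4% after Dnmt1 knockdown. Off MspI sites the flanks also went with the residual level: 2061 high isolated cytosines in gCGg stood at 17.95% after Dnmt1 knockdown and 1558 in cCGc at 25.9%, with a control level of 90.8% in both. This last pair was picked for its Dnmt1 levels: gCGg was the lowest of the 15 contexts and cCGc was near the highest. The highest was aCGc, also at 25.9%, with a control level of 90.6%.

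Dnmt3a knockdown gave the next largest difference. Isolated cytosines had a mean of 52.0% ± 2.41, or -8.06 ± 0.483 points from control, negative on 19 of 19 autosomes. The difference was -8.02 ± 0.540 points for single cytosines, -8.56 ± 0.466 in runs of 2, -8.12 ± 0.664 in runs of 3 and -7.38 ± 0.664 in runs of 4, so in points it hardly changed with run size. As a share of control the level was 88.8% for single cytosines and 86.9%, 85.2% and 84.6% in runs of 2, 3 and 4. By class the difference was -14.8 ± 0.518 points for intermediate cytosines, -5.57 ± 0.326 for high ones and -3.20 ± 0.251 for low ones. The low cytosines kept 39.9% of their control level, the intermediate 77.6% and the high 93.8%. The Dnmt3a level is itself part of what set these classes.

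Within the intermediate class the difference was smaller for single cytosines than for those with neighbours: -13.0 ± 0.615 points, against -14.6 ± 0.563, -15.9 ± 0.771 and -15.9 ± 0.943 in runs of 2, 3 and 4. At a matched reference level of 60 to 80% the values were -13.0 for single cytosines and -16.0 for runs of 4, a gap of 2.76 ± 1.05 points over autosomes, on 19 of 19. For MspI-site cytosines alone the gap was 1.48 ± 1.86 points, on 13 of 19, which is within its spread. At 80 to 90% their gap was 1.47 ± 0.874 points, on 18 of 19. At 0 to 5% the order was the reverse, with a gap of -0.460 ± 0.270 points, positive on 1 of 19. MspI-site cytosines also differed from their own neighbours. In 28938 runs of 2 to 4 that held both kinds, the Dnmt3a difference was -7.35 points for the MspI-site cytosine and -8.67 for the others, 1.33 ± 0.256 points apart on 19 of 19 autosomes, while control stood at 58.2% and 57.6%. The share of MspI-site cytosines thus moves with run size, and its part in the trend beyond these values was not tested.

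**Figure D4:**
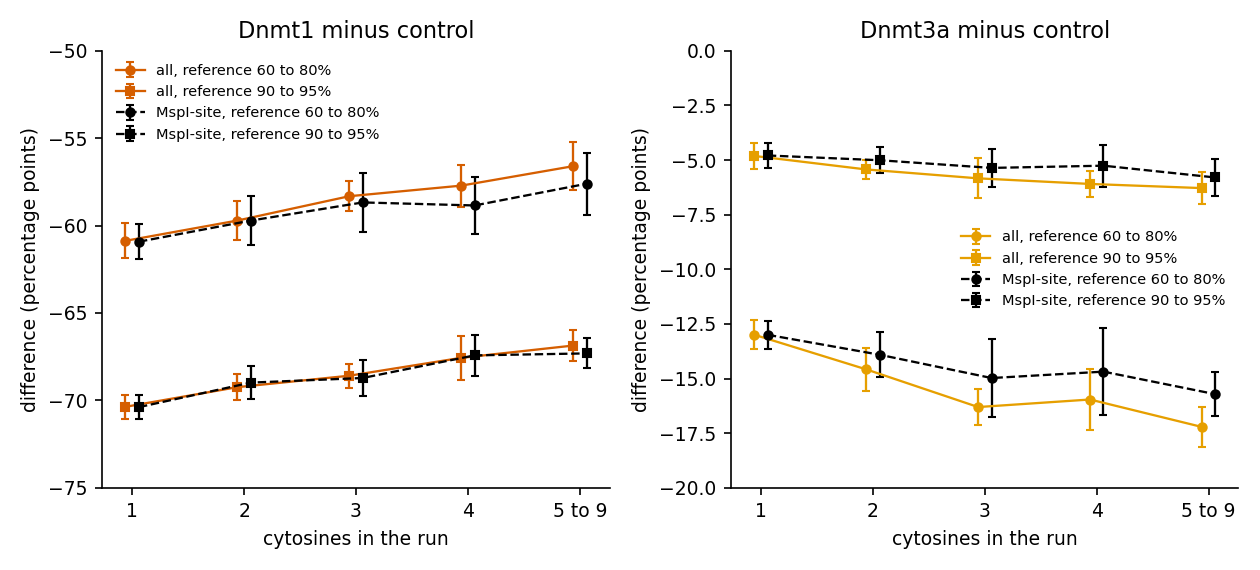
Difference from control in percentage points (vertical axes, not starting at 0 for Dnmt1) by number of cytosines in the run (horizontal axes) for Dnmt1 (left) and Dnmt3a (right), at reference levels of 60 to 80% and 90 to 95% in the Dnmt3b and the Tet1 with Tet2 libraries; bars are the SD over 19 autosomes. Dashed lines are MspI-site cytosines alone, for which the Dnmt3a trend at 60 to 80% is smaller, from -13.0 to -14.7 points.

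Flanking bases went with the Dnmt3a difference off MspI sites. Intermediate cytosines in aCGt had a difference of -18.1 ± 2.04 points (1275 cytosines) and those in tCGa -11.0 ± 1.61 (858 cytosines), with control levels of 67.7% ± 2.25 and 65.5% ± 3.82. The contexts differed by 7.15 ± 2.23 points on 19 of 19 autosomes. The high and low classes had no part in picking them. In the high class the differences were -8.25 ± 1.54 points in aCGt and -4.61 ± 1.30 in tCGa, 3.46 ± 2.09 points apart on 19 of 19 autosomes. In the low class they were -3.50 ± 1.11 and -2.89 ± 0.740 points, 0.830 ± 1.41 points apart on 15 of 19 autosomes, which is within the spread. The Dnmt3b library had the opposite order, with differences of 2.94 ± 1.32 points in aCGt and 0.395 ± 1.98 in tCGa for intermediate cytosines (16 of 19 autosomes). For Dnmt1 these contexts had -56.3 ± 2.49 and -54.6 ± 3.61 points, less than their spread apart.

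The library with both Dnmt3a and Dnmt3b shRNAs stood between control and the Dnmt3a library. Isolated cytosines had a mean of 54.3% ± 2.46, which was -5.74 ± 0.470 points from control and 2.33 ± 0.189 points above the Dnmt3a library, on 19 of 19 autosomes. The difference from control was -5.87 ± 0.570 points for single cytosines and -5.20 ± 0.478 in runs of 4. Intermediate cytosines differed by -10.6 ± 0.665 points and high ones by -3.50 ± 0.254. The double knockdown exceeded the sum of the single knockdowns' differences by 1.63 ± 0.205 points on 19 of 19 autosomes, that is, the level was higher than the sum gives. For low cytosines this value was -0.309 ± 0.232 points. From single low cytosines to runs of 4 it was 0.378 ± 0.656, -0.517 ± 0.495, -0.260 ± 0.319 and -0.418 ± 0.303 points. The values of single cytosines and of runs of 3 were within the spread.

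Dnmt3b knockdown came with a level slightly above control. The mean of isolated cytosines was 60.7% ± 2.24, a difference of 0.697 ± 0.160 points, positive on 19 of 19 autosomes. Single cytosines differed by 0.232 ± 0.245 points, positive on 16 of 19 autosomes and within the spread, and runs of 2, 3 and 4 by 0.767 ± 0.194, 0.849 ± 0.274 and 0.871 ± 0.314 points. In runs holding both kinds, MspI-site cytosines differed by 0.374 points and the others by 1.17, the others being higher on 19 of 19 autosomes.

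The Tet1 with Tet2 knockdown gave the highest levels. Isolated cytosines averaged 62.7% ± 2.04, or 2.68 ± 0.237 points above control, on 19 of 19 autosomes. By run size the difference was 2.55 ± 0.268, 2.96 ± 0.406, 2.73 ± 0.301 and 2.38 ± 0.324 points, from single cytosines to runs of 4. It was largest in the intermediate class, at 5.32 ± 0.329 points, with 2.08 ± 0.230 in the low class and 0.859 ± 0.137 in the high class. Low cytosines stood at 139% of their control level, in a class that both levels helped to set.

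Cytosines were also counted when their level differed from control by at least 20 points. The background of each count is the share over all 369208 cytosines, which includes the isolated ones. In the Dnmt1 library 83143 isolated cytosines (74.2%) were lower by this measure, against a background of 31.8%, and 10 were higher (background 0.00813%). By run size the shares were 87.9%, 81.1%, 67.9% and 59.5%, and by class 4.89% of low, 97.6% of intermediate and 99.2% of high cytosines. Over all cytosines of a class the shares were 1.22%, 96.9% and 99.03%, so the intermediate and high shares were near their background. In the Dnmt3a library 13409 (12.0%) were lower, with a background of 5.87%, and 234 were higher (0.209%; background 0.0829%). The lower ones were 29.9% of the intermediate class, 3.31% of the high and 2.14% of the low class, against 31.6%, 3.57% and 0.543% over all cytosines of these classes. In the intermediate and high classes the isolated cytosines were thus not above the background. The double knockdown had 7744 lower (6.92%; background 3.45%) and 343 higher (0.306%; background 0.127%). In the Tet1 with Tet2 library 3553 were higher (3.17%; background 1.53%) and 842 lower (0.752%; background 0.358%). In the Dnmt3b library 1880 were higher (1.68%, background 0.838%) and 1074 lower (0.959%, background 0.464%). In the intermediate class, gains with Tet1 and Tet2 shRNAs made up 7.28%, against 7.23% over all cytosines of that class. Dnmt3b gains made up 3.72% against 3.77%, and double-knockdown falls 17.4% against 18.6%, so these were near background. In the same order, low shares were 1.998% against 0.483%, 1.04% against 0.284% and 1.72% against 0.446%, above background. High shares were 0.495% against 0.464%, 0.3804% against 0.353% and 1.504% against 1.535%. A cytosine under 20% in control cannot be counted as lower, and 23.9% of isolated cytosines were under 20% in control, against 85.8% of those in runs of 5 or more.

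The level of each cytosine carries an error that these counts include. The strands of a CpG were both listed among isolated cytosines for 575 CpGs, all in runs of 2 or more. Their strand difference holds the error of both levels and any true difference between the strands. The SD of the strand difference in control was 11.7 points for 225 intermediate CpGs, 5.87 for 261 high ones and 5.39 for 89 low ones. For differences from control in the intermediate class it was 11.7 points for Dnmt3b, 13.1 for the double knockdown, 13.6 for Dnmt1, 14.1 for Tet1 with Tet2 and 14.4 for Dnmt3a. Runs of 2 to 4 were also counted, although most lie on 1 strand and share reads, when their mean differed by at least 20 points with every cytosine in that direction. Of 32838 runs, 24018 were lower in the Dnmt1 library (73.1%; background over all 55362 runs of 2 or more 52.5%) and 0 were higher, as among all runs. The Dnmt3a library had 3195 lower (9.73%; background 7.07%) and 8 higher (0.0244%; background 0.0145%). The double knockdown had 1489 lower (4.53%; background 3.18%) and 15 higher (0.0457%; background 0.0289%). The Tet1 with Tet2 library had 517 higher (1.57%; background 1.01%) and 73 lower (0.222%; background 0.139%). In the Dnmt3b library 213 runs were higher (0.649%, background 0.414%) and 96 lower (0.292%, background 0.181%). The background includes 22524 runs of 5 or more, of which 76.9% were in the low class. A run with a control mean under 20% cannot be counted as lower. In a longer run more cytosines must also go the same way. The shares above background therefore do not tell isolated runs from larger runs at a like level.

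Neighbouring isolated cytosines had like levels over short distances. As a description over pairs, which share reads when close, Pearson's r of control levels was 0.966 for 16668 adjacent pairs 2 to 10 bp apart, 0.923 for 15605 pairs at 26 to 50 bp and 0.895 for 5766 pairs at 100 to 200 bp, 33.1% of which were on 1 strand. In the Dnmt1 library r was 0.815 at 2 to 10 bp, 0.659 at 26 to 50 bp and 0.356 at 100 to 200 bp. The decline with distance was not even. For 2955 pairs at 51 to 100 bp, 10.8% of them on 1 strand, r was 0.854 in control and 0.292 in the Dnmt1 library. Both values lay below those at 100 to 200 bp. Between the strands of 1 CpG, 575 pairs, r was 0.959 in control and 0.422 in the Dnmt1 library. Levels in the Dnmt1 library have a narrow range, and the part of that range in the lower r was not tested. The median difference between strands was 4.4 points in control and 6.1 points in the Dnmt1 library.

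Runs are named to show what these means look like at single sites. Positions are on mm9, 1-based, and gene annotation of that build was not used here. The typical runs are the runs of 4 nearest to the medians of their class. The low one, chr8:109960817-109960963, lay on both strands. Its first 2 cytosines were at 0% in every library, and its highest level was 3.6%, in tcCGg in the Tet1 with Tet2 library.

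The typical intermediate run, chr2:24777014-24777058, lay on the plus strand. Its cytosines stood at 61.2% in gcCGg, 81.3% in ggCGt, 77.9% in caCGc and 55.4% in ctCGg in control. They were at 6%, 7%, 14% and 8% after Dnmt1 knockdown and at 45.4%, 69.2%, 53.4% and 36.2% after Dnmt3a knockdown. All 4 were thus lower in both, and the first and last, which were lowest in control, also had the lowest Dnmt3a levels.

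The typical high run, chr7:148485184-148485339, had its cytosines on both strands. Control levels were 94.4% in ccCGg, 89.5% in gaCGt, 93.4% in taCGt and 84.2% in acCGg. The Dnmt1 levels were 31.7%, 9.3%, 23.7% and 15.5%, a wider range than in control. Its mean was 90.4% in control, 90.7% with Tet1 and Tet2 shRNAs, 82.5% with Dnmt3a, 90.3% with Dnmt3b and 83.9% with both.

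The runs with the largest differences were taken from 3123 runs of 3 or 4 on both strands, with every cytosine past 20 points. They were picked for extreme values, so their differences are no estimate for other runs. Of these runs, 2520 qualified as falls under Dnmt1, 68 under Dnmt3a, 15 under the double knockdown and 0 under Dnmt3b or Tet1 with Tet2. Gains qualified in 3 runs for Tet1 with Tet2, 2 for Dnmt3b and 0 for the others. No share over larger runs is given under this rule, so these counts have no background and only show where the named runs came from.

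The largest Dnmt3a fall was at chr11:98646686-98646794. Its control levels were 75% in acCGg, 90% in gtCGc, 76.5% in tgCGa and 85.3% in gcCGg, and its Dnmt3a levels 40.4%, 40.4%, 20.8% and 41.7%. The run mean was 81.7% in control, 35.8% with Dnmt3a, 40.1% with both Dnmt3 shRNAs, 4.38% with Dnmt1, 69.9% with Dnmt3b and 61.8% with Tet1 and Tet2. It was also the largest fall of the double knockdown, and every knockdown mean lay below control.

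At chr2:168670959-168671008, the next fall under Dnmt3a, the run mean went from 64.9% in control to 22.8%. The minus-strand cytosine in acCGg was at 55.9% in control and 27.4% in the Dnmt3a library, and the 3 plus-strand ones were at 61% to 75% and 17.9% to 24.5%. At chr8:114116838-114116941, the next fall of the double knockdown, the mean was 66.9% in control, 31.1% with Dnmt3a and 30.8% with both.

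The largest gain under Tet1 with Tet2 was at chr2:168926983-168927084. Control levels were 17.6% in gcCGg, 50% in ccCGc, 37.3% in ggCGg and 37.3% in acCGg, and the levels with Tet1 and Tet2 shRNAs 40.9%, 81.8%, 84.6% and 73.1%. The Dnmt3b library was also above control there, with a run mean of 52%, while the Dnmt3a mean was 13.9%. The next gain, at chr5:125645373-125645470, went from 12.9% in control to 39.3%.

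Both Dnmt3b gains lay on chromosome 15. At chr15:97413508-97413621 control levels were 47.5% in ccCGg, 49.2% in caCGc, 27% in atCGg and 14.8% in a further ccCGg, with Dnmt3b levels 72.1%, 76.5%, 66.2% and 60.9%. The run mean with Tet1 and Tet2 shRNAs was 56.6%, and with both Dnmt3 shRNAs 33.1%, close to the 34.6% of control. At chr15:102082894-102083001 the mean was 40.8% in control and 72.4% with Dnmt3b.

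The largest Dnmt1 fall, at chr16:74547966-74548066, had control levels of 95.2% in tcCGg, 94.1% in gaCGa, 93.8% in aaCGa and 87.5% in ccCGg. All 4 cytosines were listed at 0% in the Dnmt1 library. At chr10:18782874-18782990 the levels were 95.3%, 93% and 89.5% in control and 0%, 0% and 8.6% in the Dnmt1 library.

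**Figure D5:**
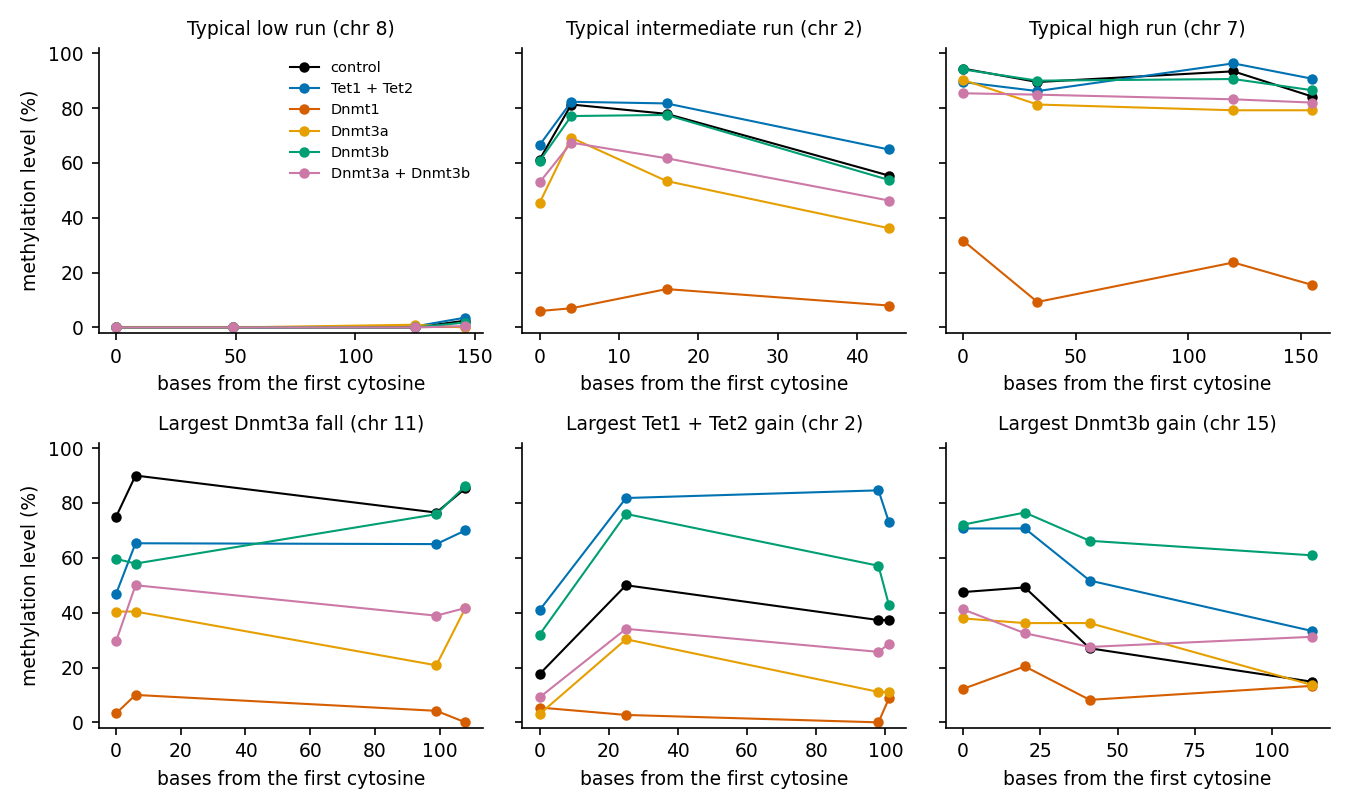
Methylation level in percent (vertical axes) of each cytosine by its distance in bases from the first cytosine of the run (horizontal axes) in 6 runs of 4, 1 line per library. The typical high run keeps 9.3% to 31.7% after Dnmt1 knockdown, and the run with the largest Dnmt3a fall has a mean of 81.7% in control and 35.8% in the Dnmt3a library.

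Mitochondrial cytosines had mean levels near 0 in all libraries, and the highest single level was 3.8%, in the Dnmt3b library. Conversion of nuclear DNA was not measured here. Over 94 mitochondrial cytosines listed in every library the mean level was 0% in control and at most 0.0660%, in the Dnmt1 library. The libraries listed between 436054 and 590713 autosomal cytosines, fewest in the Dnmt1 library.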

How the data were processed

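RRBS libraries of 6 shRNA groups of E14 cells were analysed, 1 library per group. According to the labels' protocols, MspI digestion was followed by TruSeq library preparation, EpiTect bisulfite conversion and HiScanSQ sequencing. CASAVA 1.8, Bismark 0.10.1 and mm9 appear in the submitters' processing notes, with no role stated. The deposited values are methylation fractions with 3 decimals for single CpG cytosines, which the authors gave without counts or coverage. A coverage minimum was not given in the sources used here, nor was duplicate handling. Without counts, no interval or count test could be made.

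Fractions were multiplied to percent and joined by chromosome, position and strand (Python 3.11.15, pandas 2.3.3, NumPy 2.4.6; figures by matplotlib 3.10.9). Contexts are those in the files, on the strand of the cytosine. Scripts were tested on simulated data. The members, classes, contexts and measures were chosen with earlier results of these data known. Named runs, outside chromosome 18, were the run of 4 nearest to its class medians and, per knockdown, up to 2 falls and 2 gains with the largest mean among runs of 3 or 4 on both strands with every cytosine at least 20 points one way. Alternatives changed the gap, the cytosines counted, strands, chromosomes, classes and thresholds.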

Additional observations from a re-analysis of the deposited data

How the results depend on the processing

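Over 14 alternatives 967 values were recomputed, of which 622 stayed within their spread or within 1.5 times the count, 344 moved and 1 changed sign: the Dnmt3b difference of high cytosines was -0.026 points for single cytosines only, against 0.169. The cause was not tested. Merging strands, adding the sex chromosomes, and dropping the demand that every cytosine of a run move one way moved no main value.

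The main values below are the control level, the gap in control between single cytosines and runs of 4, and differences from control in points. With gaps of at most 50 bp the level was 54.4%, the gap 35.6, the Dnmt1 difference -43.2, that of intermediate cytosines -54.8 and its single minus run-of-4 value -5.85. With 200 bp the level was 64.2%, the gap 17.4 and the Dnmt1 difference -51.2. With 300 bp these were 66.3%, 15.1 and -52.8, with -56.0 for Dnmt1 in intermediate cytosines, -8.59 for Dnmt3a and 2.57 for the double knockdown minus Dnmt3a. With neighbours counted in any library the level was 66.4%, the gap 13.1, and the Dnmt1 difference -52.9, or -55.9 in intermediate cytosines. With cytosines of the 5 libraries other than Dnmt1 the level was 63.6%, the gap 20.5 and the intermediate Tet1 with Tet2 difference 5.67.

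For single cytosines only, the level was 71.8%, the low share 12.1%, the Dnmt1 difference -58.0 and the Dnmt3b difference 0.232. Their intermediate differences were 4.79 for Tet1 with Tet2, -57.6 for Dnmt1, -13.0 for Dnmt3a, 0.531 for Dnmt3b and -9.57 for the double knockdown. With classes from the mean of the Dnmt3b and Tet1 with Tet2 levels, the intermediate Dnmt1 difference was -46.9, its single minus run-of-4 value -6.47 and the Dnmt3b difference 0.711.

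At 10 points, 14.8% of isolated cytosines were higher with Tet1 and Tet2 shRNAs, 35.3% lower with Dnmt3a, 8.73% higher with Dnmt3b and 25.6% lower with both. The shares of runs were 10.7%, 33.8%, 5.20% and 22.4%. At 30 points the shares of cytosines were 0.676%, 3.14%, 0.343% and 1.51%, and of runs 0.231%, 1.66%, 0.0974% and 0.664%. No share over all cytosines or all runs was taken at 10 or 30 points. These shares therefore have no background and do not tell isolated cytosines from the others.

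Both of the following alternatives were chosen after seeing the data. With MspI-site cytosines alone the level was 64.9%, the gap 19.6, the Dnmt1 difference -51.8, or -56.0 in intermediate cytosines, and the Dnmt3b difference 0.295, or 0.585. The intermediate Dnmt3a difference was -13.7, its single minus run-of-4 value 1.76, and the double knockdown minus Dnmt3a 2.04. Beyond 20 kb from a run of 10 or more the level was 67.7%, the gap 18.5, the Dnmt1 difference -53.5, or -55.9 in intermediate cytosines, the intermediate double difference -9.83 and the double knockdown minus Dnmt3a 2.70.

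No paired analysis was possible because each group has 1 library. Without replicates or read counts, the only view of the error of a level is the strand difference at 575 CpGs. That difference also holds any true difference between the strands.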

Other observations

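Isolated cytosines of the X chromosome, which entered the values above only where the sex chromosomes were added as an alternative, had the same order of libraries as those of the autosomes. Over 2402 such cytosines the mean was 57.0% in control, 58.5% with Tet1 and Tet2 shRNAs, 12.6% with Dnmt1, 50.9% with Dnmt3a, 57.4% with Dnmt3b and 52.5% with both Dnmt3 shRNAs. By run size the control level was 72.01% for 454 single cytosines, 61.9% in runs of 2, 53.2% in runs of 3 and 43.4% in runs of 4, the order found on the autosomes.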
